A study of Mus musculus with 19 samples.

Results

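The TET dioxygenases and the genes that act with or after them in DNA demethylation were followed through yolk sac, fetal liver and cystic embryoid bodies (EBs), the hollow, fluid-filled structures that embryonic stem (ES) cells form in floating culture. The 8 genes were chosen by name: the dioxygenases Tet1, Tet2 and Tet3, the DNA glycosylases Tdg, Smug1 and Mbd4, and the stress-induced genes Gadd45a and Gadd45b. All 8 were found among the 23337 gene symbols of the expression table, as 10 of its 30455 RefSeq transcripts, and all 8 passed the filter on low counts. Of the 10 transcripts, Tet1 and Tdg had 2 each, and each gene is given by the transcript with the highest mean count.

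RNA-seq was done on 11 libraries. The FVB mouse tissues were visceral yolk sac endoderm (ysE) at E9.25 (2 libraries) and E12.5 (1 library), visceral yolk sac mesoderm with its vasculature at E9.25 (2 libraries), and fetal liver at E12.5 (2 libraries), each library being made from a pooled litter. The 4 cystic EB libraries came from C57Bl/6x129 ES cells of clone A9 (XY, replicate A) and clone JN (XX, replicate B), each at day 10 and day 15 of differentiation, so they represent 2 cell lines and not 4 independent cultures of one. Whole genome bisulfite sequencing (WGBS) covered E12.5 ysE, E12.5 liver and day 15 cystic EBs, 1 library from each of the reciprocal crosses of CAST and FVB (CxF and FxC, the cystic EBs from ES clones CF-C2 and FC-A2), and H3K4me3 ChIP-seq covered whole visceral yolk sac of FVB mice at E12.5, pooled from 2 litters. RNA libraries were made in 3 ways: E12.5 ysE was non-stranded, liver and clone A9 EBs were ScriptSeq, and the rest were dUTP libraries, so tissue and protocol overlap in most comparisons.

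TET proteins oxidise the methyl group of 5-methylcytosine, using 2-oxoglutarate and iron, to hydroxymethyl, formyl and carboxyl forms. TDG cuts out the formyl and carboxyl forms, and base excision repair (BER) then puts back an unmodified cytosine, while SMUG1 and MBD4 remove uracil and thymine that arise by deamination of cytosine and methylcytosine. GADD45 proteins are induced by stress and have been linked to demethylation at single loci. Tet1 and Tet2 are known for high expression in ES cells, and Tet3 for its role in the zygote and later tissues.

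Total counts ran from 40453779 to 169981821 per library. Scaling factors of the TMM method ran from 0.766 in E9.25 ysE to 1.21 in day 10 cystic EBs. The yolk sac endoderm markers (Afp, Ttr, Apoa1, Apob, Amn, Cubn, Lrp2 and Rbp4) were all detected in every library, and their summed level was 131629 CPM (counts scaled to library depth, with TMM factors) in E12.5 ysE and 47614 to 48582 in E9.25 ysE, against 4508 to 8451 in mesoderm, 4898 to 8459 in liver and 1108 to 4616 in cystic EBs. Fewer cells of a type and less RNA per cell cannot be told apart in these bulk samples.

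The start sites of the 3 TET genes and of Gadd45b are shown because the data include methylation and H3K4me3 there. The sequences are RefSeq promoter windows on GRCm38.p6 (mm10), from 250 bases before to 50 bases after the transcription start, written along the gene's strand with each CpG in capitals. RefSeq windows were matched for 8 of the 8 genes. Tet1 lies at chr10:62887275-62887574 on the minus strand, Tet2 at chr3:133544341-133544640 on the minus strand, Tet3 at chr6:83441629-83441928 on the minus strand and Gadd45b at chr10:80929841-80930140 on the plus strand.
Tet1: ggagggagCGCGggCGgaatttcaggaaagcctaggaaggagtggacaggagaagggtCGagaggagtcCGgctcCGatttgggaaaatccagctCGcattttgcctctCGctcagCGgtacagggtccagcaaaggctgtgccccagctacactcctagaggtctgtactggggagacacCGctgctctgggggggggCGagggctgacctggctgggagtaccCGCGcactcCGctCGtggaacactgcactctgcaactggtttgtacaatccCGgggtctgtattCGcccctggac
Tet2: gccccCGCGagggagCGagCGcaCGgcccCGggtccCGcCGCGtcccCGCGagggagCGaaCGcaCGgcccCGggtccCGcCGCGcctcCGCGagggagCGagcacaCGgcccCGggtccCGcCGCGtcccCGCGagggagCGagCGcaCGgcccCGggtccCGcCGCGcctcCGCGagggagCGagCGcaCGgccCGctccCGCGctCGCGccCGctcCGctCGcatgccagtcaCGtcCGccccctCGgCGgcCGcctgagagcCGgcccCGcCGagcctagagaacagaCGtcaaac
Tet3: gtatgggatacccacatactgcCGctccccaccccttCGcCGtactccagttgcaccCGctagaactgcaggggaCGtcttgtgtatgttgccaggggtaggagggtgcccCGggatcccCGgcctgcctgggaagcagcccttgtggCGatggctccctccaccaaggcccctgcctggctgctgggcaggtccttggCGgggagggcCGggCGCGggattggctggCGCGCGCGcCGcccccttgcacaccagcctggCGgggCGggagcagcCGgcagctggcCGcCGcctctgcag
Gadd45b: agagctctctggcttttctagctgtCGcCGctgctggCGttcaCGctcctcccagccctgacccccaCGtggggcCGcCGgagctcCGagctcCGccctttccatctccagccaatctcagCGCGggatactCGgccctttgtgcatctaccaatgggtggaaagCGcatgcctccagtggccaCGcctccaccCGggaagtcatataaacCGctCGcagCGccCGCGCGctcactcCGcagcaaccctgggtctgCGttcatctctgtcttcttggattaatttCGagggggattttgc

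The windows differed most in CpG number. Tet2 held 57 CpGs in its 300 bases, a number reached by 0.2% of the 32851 RefSeq windows of the same length, while Tet1 held 17, Tet3 22 and Gadd45b 24. The other windows held 26 (Tdg), 25 (Mbd4), 15 (Smug1) and 14 CpGs (Gadd45a), and the median of all windows was 7. A GC box, GGGCGG on either strand, was found in 7 of the 8 windows, in all but that of Tdg, and in 35.7% of all windows. These matches describe the letters only.

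H3K4me3, a histone mark of active or poised start sites, covered the start of each of the 8 genes in the whole yolk sac at E12.5. The peak scores given by the authors' caller at the starts were 2302 for Smug1, 2673 for Tet1, 3100 for Tet2, Tdg, Mbd4, Gadd45a and Gadd45b, and 3163 for Tet3, against a median of 863 over all 22343 peaks, of which 5529 scored 3100 or more. This sample is 1 pool with no replicate and holds both yolk sac layers, so it cannot assign a peak to a layer. Further peaks lay away from these starts. Tet1 (chr10:62804570-62887469) had a peak of score 339 whose centre was 21.8 kb inside the gene, Tet3 (chr6:83362373-83457208) had peaks of score 929 and 719 centred at -14.1 kb and -15.3 kb from the RefSeq start, inside and at the edge of the annotated gene, and Smug1 (chr15:103153290-103168939) had a peak of score 264 centred at -5.94 kb from its start.

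Tet1, the dioxygenase most associated with ES cells, was expressed highest in cystic EBs. Its levels, as RPKM (reads scaled to transcript length and library depth), were 4.97 and 7.10 at day 10 and 3.34 and 2.93 at day 15 in clones A9 and JN. They were 1.25 and 1.48 in E9.25 ysE, 0.736 in E12.5 ysE, 0.649 and 0.816 in mesoderm, and 0.910 and 0.646 in liver. The lowest cystic EB library thus lay above every tissue library, and E9.25 ysE lay above the other tissues.

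In the test over all transcripts (edgeR quasi-likelihood test, Benjamini-Hochberg adjustment, threshold 5%), Tet1 was higher in cystic EBs by a log2 fold change of 2.28 ± 0.55 (SE) against E12.5 ysE (adjusted p = 0.00929), 1.31 ± 0.38 against E9.25 ysE (adjusted p = 0.0173), 2.23 ± 0.40 against liver (adjusted p = 0.00193) and 2.52 ± 0.41 against mesoderm (adjusted p = 0.00232). The call against E9.25 ysE was lost without replicate A of that tissue (log2 fold change 1.26, adjusted p = 0.103) and without replicate B (1.47, adjusted p = 0.0721). Between the layers of the E9.25 yolk sac, the difference in Tet1 was 1.21 ± 0.42 toward endoderm and did not pass (adjusted p = 0.0537). Between E12.5 ysE, mesoderm and liver, neighbours in the order of levels, the log2 differences were 0.05 to 0.29 with standard errors of 0.41 to 0.51.

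The markers of pluripotent cells, like Tet1, were higher in every cystic EB library than in any tissue library. All 7 of the 7 (Pou5f1, Nanog, Zfp42, Esrrb, Dppa5a, Tdgf1 and Utf1) were detected in each cystic EB library, with a summed level of 174 CPM at day 10 and 244 at day 15 for clone A9, and 483 and 287 for clone JN. Within the cystic EBs the order of the sums was not that of Tet1, since day 10 of clone A9 had the lowest sum and the next to highest Tet1, and day 15 of clone JN the next to highest sum and the lowest Tet1. In the tissues the sums were 13.4 to 15.1 CPM in E9.25 ysE, 8.63 in E12.5 ysE, 1.97 to 2.21 in mesoderm and 0.181 to 0.342 in liver. Nanog and Tdgf1 had no counts in E12.5 ysE or liver, and Pou5f1 had none in E12.5 ysE. The sum of the 5 neural markers (Sox1, Pax6, Nes, Tubb3 and Sox2) was also higher in each cystic EB library (107 to 203 CPM, highest at day 10 of clone JN) than in any tissue library, of which liver replicate A was nearest with 104.1. Sox2 is also among the genes that the paper lists as associated with pluripotency, so the neural sum is not specific to neural cells. The part of pluripotent or neural cells in the Tet1 difference was not tested.

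Tet2 also stood highest in cystic EBs, and by RPKM it exceeded Tet1 and Tet3 in every library but day 10 clone JN and E9.25 ysE replicate B. Its levels in RPKM were 9.62 at day 10 and 8.11 at day 15 for clone A9, and 6.46 on either day for clone JN. In the tissues they were 1.75 and 1.35 in E9.25 ysE, 3.41 in E12.5 ysE, 2.35 and 2.38 in mesoderm, and 3.49 and 3.24 in liver. No tissue library reached the lowest cystic EB library, and within the cystic EBs the clones did not overlap.

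Tet2 was higher in cystic EBs by a log2 fold change of 1.86 ± 0.25 against E9.25 ysE (adjusted p = 0.000307), 1.57 ± 0.24 against mesoderm (adjusted p = 0.00182) and 0.86 ± 0.23 against liver (adjusted p = 0.0145). Against the single library of E12.5 ysE the difference was 0.81 ± 0.31 and did not pass (adjusted p = 0.0614). It did pass with library totals only (1.32, adjusted p = 0.0115) and with the replicate letter as a block (0.94, adjusted p = 0.0214). It also passed without day 10 (0.87, adjusted p = 0.0474) or day 15 of clone JN (0.93, adjusted p = 0.0385). The call against liver was lost without either liver library, with adjusted p of 0.0601 without replicate A and 0.102 without replicate B. The difference in Tet2 between E12.5 and E9.25 ysE, 1.06 ± 0.31, did not pass (adjusted p = 0.0646), although it did with RLE scaling (1.22).

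Tet3 was ordered differently from the other TET genes and was highest in fetal liver. Its RPKM was 3.06 and 3.04 in liver, 2.301 in E12.5 ysE, 1.60 and 1.65 in mesoderm, and 1.07 and 1.395 in E9.25 ysE. The cystic EB values were 1.87 and 1.98 at day 10 and 1.54 and 1.46 at day 15 for clones A9 and JN, within the range of the yolk sac layers and below liver in every library.

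The cystic EB level of Tet3 was below that of liver by a log2 difference of -1.16 ± 0.20 (adjusted p = 0.00153) and below that of E12.5 ysE by -0.79 ± 0.25 (adjusted p = 0.0332). The second call rests on the scaling, since with library totals only the difference was -0.28 (adjusted p = 0.409). It differed from E9.25 ysE by 0.03 ± 0.21 (adjusted p = 0.907) and from mesoderm by -0.05 ± 0.20 (adjusted p = 0.871), neither of which passed. With library totals only, the first did (0.62, adjusted p = 0.0346). Liver also exceeded mesoderm (1.11 ± 0.24, adjusted p = 0.00667) and E9.25 ysE (1.19 ± 0.24, adjusted p = 0.00258) in Tet3, while its difference from E12.5 ysE, 0.37 ± 0.30, did not pass (adjusted p = 0.325).

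**Figure D1:**
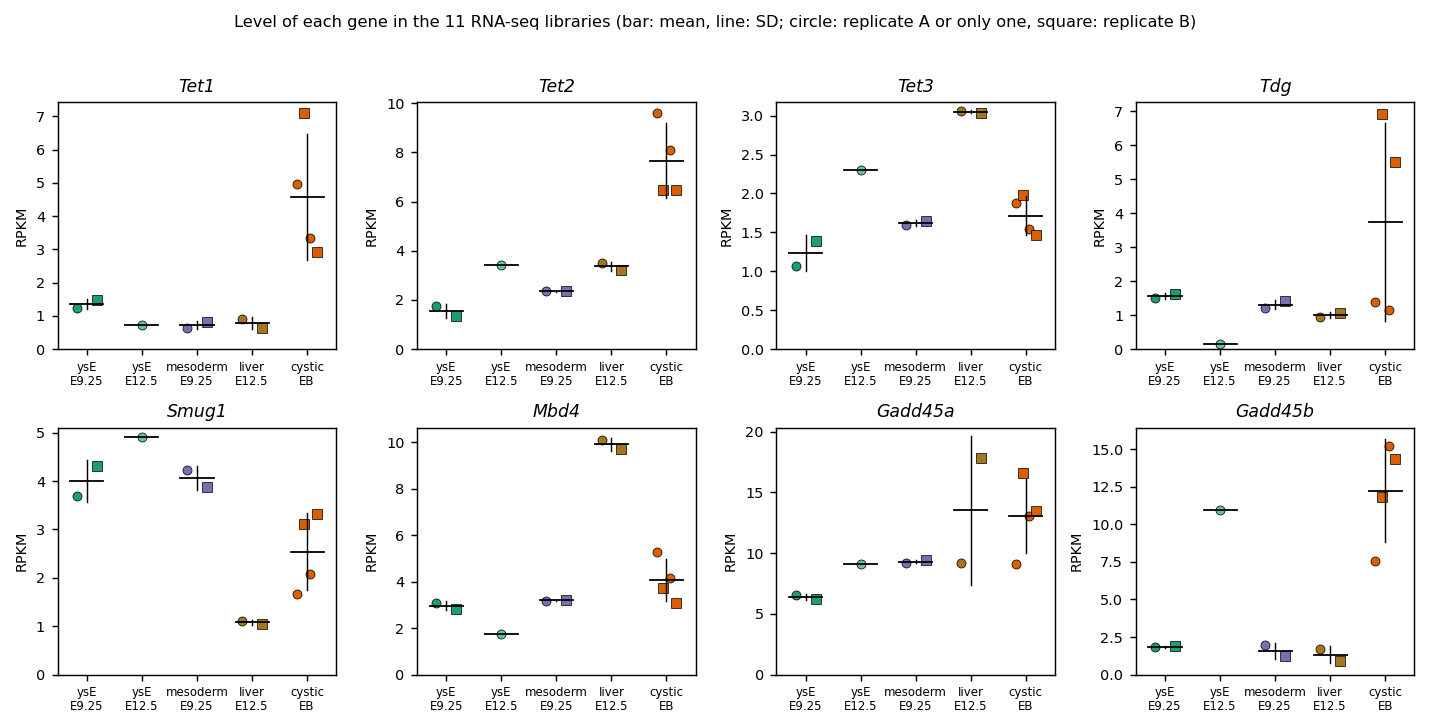
RPKM (vertical axes, from 0) of the 8 genes in the 11 RNA-seq libraries by tissue (horizontal axes), with means and SDs (E12.5 ysE is 1 library). Tet1 and Tet2 lie highest in all 4 cystic EB libraries, Tet3 and Mbd4 lie highest in both liver libraries, and Tdg is split between the cystic EB clones.

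The summed RPKM of the 3 TET genes was 14.0 ± 2.54 (SD, n = 4) in cystic EBs, with a lowest library of 10.9, against 7.19 ± 0.385 in liver (n = 2), 6.45 in E12.5 ysE (n = 1), 4.72 ± 0.176 in mesoderm (n = 2) and 4.14 ± 0.110 in E9.25 ysE (n = 2). The mixture of the 3 transcripts changed with the tissue. Tet3 made up 11.4% to 13.5% of the sum in cystic EBs and 26.3% to 43.9% elsewhere, whereas Tet1 made up 25.7% to 45.7% in cystic EBs, 30.7% to 35.0% in E9.25 ysE and 9.34% to 16.8% in E12.5 ysE, mesoderm and liver. Tet2 held 31.9% to 62.4% across all libraries. These shares are descriptions of relative RNA levels and were given no test. Unlike the tests, RPKM carries no TMM factor. The factors were 0.766 to 0.816 in ysE, 0.987 and 0.990 in mesoderm, and 1.025 to 1.209 in liver and cystic EBs. A factor below 1 raises a level, so the order of ysE among the tissues depends on the scaling. The size of the gap to cystic EBs does as well.

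**Figure D2:**
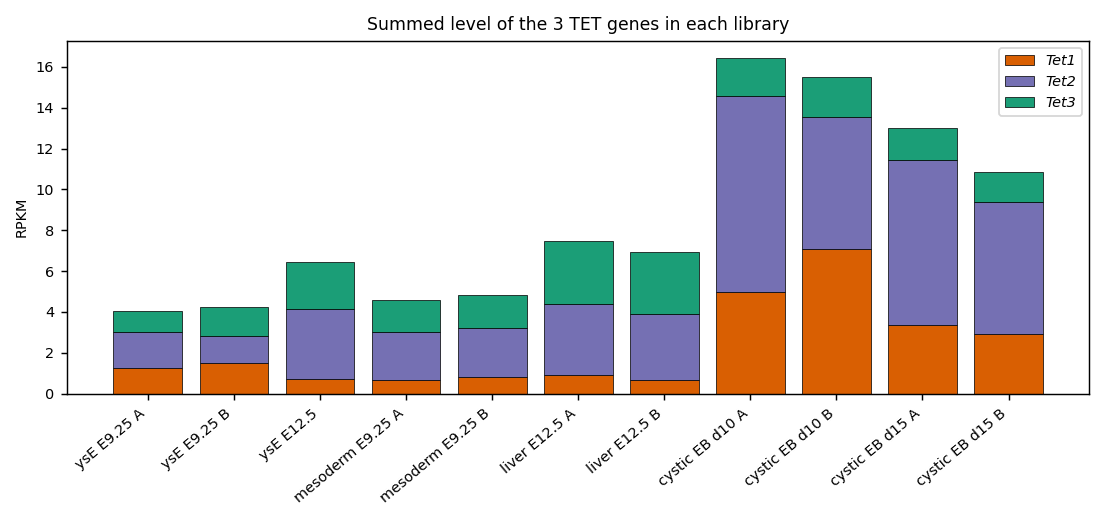
Stacked RPKM (vertical axis, from 0, without TMM factors) of Tet1, Tet2 and Tet3 in each of the 11 libraries. The 4 cystic EB bars reach 10.9 to 16.5 RPKM and hold the smallest Tet3 share, and no tissue bar exceeds 7.46.

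Tdg, the glycosylase that removes the oxidised bases made by TET proteins, followed the ES clone in the cystic EBs. Its RPKM was 1.396 at day 10 and 1.16 at day 15 in clone A9, against 6.92 and 5.52 in clone JN. Among the tissues, E9.25 ysE had 1.499 and 1.64, mesoderm 1.22 and 1.402, liver 0.948 and 1.06, and E12.5 ysE 0.137, where only 19 reads were counted. Clone A9 thus lay among the tissues and clone JN above every other library.

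In the fit of the 4 cystic EB libraries, Tdg was the 1 of the 8 genes called between clones, where 12.54% of the 22452 transcripts tested were called (7.897% higher in clone JN and 4.641% lower). It was higher in clone JN by a log2 fold change of 2.23 ± 0.28 (edgeR, adjusted p = 0.00760), a call that was lost without day 10 of clone JN (1.98, adjusted p = 0.0617). Clone, sex and library protocol split these libraries the same way and cannot be told apart. In the exon-part counts, a separate counting of the same reads over 32 parts of Tdg, clone JN had 45.0 and 33.3 reads after scaling each library to the same depth (RPM) and clone A9 11.7 and 8.55, with reads in all 32 parts in clone JN and in 26 and 23 parts in clone A9. E9.25 ysE replicate A had 10.3 RPM. Tdg has near-identical pseudogene copies, and how reads matching several places were counted is not given in the sources used here, so its levels are uncertain. The annotated copy Tdg-ps held 3 to 18 reads in these 5 libraries.

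Against E12.5 ysE, cystic EBs were also called higher in Tdg (4.40 ± 1.17 on the log2 scale, adjusted p = 0.0151), with 19 reads in the ysE library, and the call was lost when only those 2 groups were fitted (adjusted p = 0.0677). The second Tdg transcript (NM_011561) was called in liver against E12.5 ysE (3.002 ± 1.10, adjusted p = 0.0483), where the first was not (2.84 ± 1.11, adjusted p = 0.0614), and matched it in its other calls. Against liver, mesoderm and E9.25 ysE the differences of 1.56 ± 0.70, 1.37 ± 0.69 and 0.80 ± 0.67 did not pass, with adjusted p of 0.0930, 0.156 and 0.336. Among dUTP libraries alone, clone JN lay above E9.25 ysE by 1.64 ± 0.22 (adjusted p = 0.000677) and above mesoderm by 2.13 ± 0.23 (adjusted p = 0.000552), while among ScriptSeq libraries alone clone A9 and liver differed by 0.04 ± 0.31 (adjusted p = 0.919).

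Smug1, which removes uracil and its oxidised forms from DNA, was lowest in liver. Its RPKM was 1.12 and 1.04 in liver, 3.69 and 4.31 in E9.25 ysE, 4.91 in E12.5 ysE, and 4.23 and 3.88 in mesoderm. Clone A9 EBs had 1.66 and 2.08 and clone JN EBs 3.12 and 3.32, between liver and the yolk sac layers in every library. Smug1 was lower in liver than in E12.5 ysE by -2.22 ± 0.39 (log2, adjusted p = 0.00153), and it was also lower than in mesoderm (-1.71 ± 0.34, adjusted p = 0.00434) and E9.25 ysE (-2.01 ± 0.34, adjusted p = 0.000986).

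Cystic EBs had lower Smug1 than E12.5 ysE (-1.32 ± 0.34, adjusted p = 0.0128) and E9.25 ysE (-1.11 ± 0.27, adjusted p = 0.00847), and higher Smug1 than liver (0.90 ± 0.30, adjusted p = 0.0323). With library totals only, neither ysE difference passed (-0.81, adjusted p = 0.0841, and -0.53, adjusted p = 0.134). The difference from E9.25 ysE also did not pass without replicate B of that tissue (-0.96, adjusted p = 0.0842). Within the ScriptSeq libraries the difference from liver was 0.50 ± 0.30 and did not pass (adjusted p = 0.225), nor did it pass without any one of liver replicates A and B and the clone JN libraries at day 10 and day 15 (0.78 to 0.98, adjusted p = 0.0550 to 0.160).

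Mbd4, a glycosylase that binds methylated CpGs and removes thymine mispaired with guanine, was highest in liver, where Smug1 was lowest, and lowest in E12.5 ysE, where Smug1 was highest. Its RPKM was 10.1 and 9.71 in liver, 3.09 and 2.83 in E9.25 ysE, 1.76 in E12.5 ysE, 3.18 and 3.20 in mesoderm, 5.27 and 4.13 in clone A9 EBs and 3.74 and 3.10 in clone JN EBs. Both liver libraries lay above all others, and cystic EBs and E9.25 ysE differed by 0.009 ± 0.235 (log2, adjusted p = 0.979), which did not pass. The log2 difference of liver was 2.46 ± 0.38 against E12.5 ysE (adjusted p = 0.000811), 1.62 ± 0.28 against E9.25 ysE (adjusted p = 0.00104) and 1.84 ± 0.28 against mesoderm (adjusted p = 0.00146), and cystic EBs lay below liver by -1.62 ± 0.23 (adjusted p = 0.000517). Against E12.5 ysE, cystic EBs passed with library totals only (1.36, adjusted p = 0.0125) and without day 15 of clone JN (1.004, adjusted p = 0.0207). They also passed with the replicate letter as a block (0.95, adjusted p = 0.0373), but not in the main fit of 11 libraries. The calls of cystic EBs and of E12.5 ysE against liver held in every alternative fit, none of which adds a library of E12.5 ysE.

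The proliferation genes Mki67, Top2a, Ccnb1, Cdk1, Pcna and Mcm2 did not all share the pattern of Mbd4. Their sum was 3998 to 5566 CPM in liver against 1577 to 2549 in the other libraries, but as RPKM liver replicate A (575) lay below both mesoderm libraries (645 and 623). Against E12.5 ysE, liver was higher in 3 of the 6, Mki67 (2.35 ± 0.80, adjusted p = 0.0374), Mcm2 (1.69 ± 0.37, adjusted p = 0.00497) and Top2a (1.28 ± 0.31, adjusted p = 0.00822), and lower in the cell-cycle kinase gene Cdk1 (-1.72 ± 0.29, adjusted p = 0.00138), beside 23.7% of all transcripts called higher and 22.6% lower. The Mki67 call was lost without liver replicate B (adjusted p = 0.114). The 5 macrophage markers were each detected in every library, and their sum was highest in liver, as Mbd4 was, at 93.9 to 137 CPM. E12.5 ysE, where Mbd4 was lowest, came next with 45.4, and the remaining libraries had 5.43 to 27.2. As RPKM the macrophage sum of E12.5 ysE (9.78) was close to that of day 15 of clone A9 (9.70) and mesoderm (7.35 and 8.49). Liver had 35.4 and 60.0 RPKM. Of the 8 erythroid markers detected in every library, the sum was 2040 to 3007 CPM in liver and 25291 to 30747 in mesoderm, where Mbd4 was not high. The part of any of these in the Mbd4 difference was not tested.

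Gadd45b, an early stress-response gene, was high in cystic EBs and in E12.5 ysE. Its RPKM was 7.57 and 11.8 at day 10 and 15.2 and 14.4 at day 15 in clones A9 and JN, and 10.95 in E12.5 ysE. The low libraries were those of E9.25 ysE (1.81 and 1.90), mesoderm (1.97 and 1.22) and liver (1.71 and 0.911). High and low were named from these same values, so their separation is a description only.

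Gadd45b was higher in cystic EBs than in E9.25 ysE by a log2 fold change of 2.28 ± 0.42 (adjusted p = 0.00176), than in liver by 2.89 ± 0.43 (adjusted p = 0.000738) and than in mesoderm by 2.83 ± 0.43 (adjusted p = 0.00171), and each call held in every alternative fit. Against E12.5 ysE the difference was -0.20 ± 0.47 and did not pass (adjusted p = 0.749). With library totals only its sign turned (0.30). E12.5 ysE had more Gadd45b than E9.25 ysE (2.48 ± 0.50, adjusted p = 0.0191) and than mesoderm (3.03 ± 0.51, adjusted p = 0.00206), and liver had less than E12.5 ysE (-3.09 ± 0.51, adjusted p = 0.00115). The stage difference rests on 1 non-stranded library at E12.5, so stage and protocol cannot be told apart, and it did not pass without E9.25 replicate A (adjusted p = 0.109) or B (adjusted p = 0.0994). With E9.25 ysE in place of E12.5 ysE, the liver difference was -0.61 (adjusted p = 0.255).

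Gadd45a varied less. Its RPKM was 6.59 and 6.24 in E9.25 ysE, 9.08 in E12.5 ysE, 9.19 and 9.40 in mesoderm, and 9.17 and 17.9 in liver, whose replicates were far apart. In cystic EBs it was 9.12 and 16.6 at day 10 and 13.05 and 13.5 at day 15 in clones A9 and JN. None of its cystic EB comparisons passed in the fit of 11 libraries with TMM scaling, with log2 differences from -0.37 to 0.58. With library totals only, the difference from E9.25 ysE passed (1.16, adjusted p = 0.0103). Within dUTP libraries, clone JN was above E9.25 ysE by 0.88 ± 0.20 (adjusted p = 0.00691) and above mesoderm by 0.58 ± 0.20 (adjusted p = 0.0485). In the fit of 11 libraries, where library protocols differ, liver was above E9.25 ysE in Gadd45a by 0.95 ± 0.36 (adjusted p = 0.0458).

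Other stress and early-response genes were set beside Gadd45b. Of 15 listed genes (Fos, Fosb, Jun, Junb, Egr1, Atf3, Ddit3, Dusp1, Ier2, Ier3, Btg2, Cdkn1a, Mdm2, Nfkbia and Myc), 9 were higher and 0 lower in cystic EBs against E12.5 ysE, 11 higher and 1 lower against E9.25 ysE, 9 higher and 1 lower against liver, and 11 higher and 1 lower against mesoderm. Of all transcripts 40%, 50.3%, 45.4% and 28.9% were called in either direction in these comparisons. Gadd45b itself did not pass in the first of them. Between ysE stages, where Gadd45b was higher at E12.5, 1 of the 15 was higher and 1 lower, beside 8.47% of all transcripts called. Myc was the lower gene against mesoderm (-1.72 ± 0.29, adjusted p = 0.00272). Their summed level was 329 to 503 CPM in cystic EBs, 239 in E12.5 ysE, and 144 to 197 in the other tissues. In E12.5 ysE the phosphatase gene Dusp1 was higher than at E9.25 (2.58 ± 0.53, adjusted p = 0.0192) and Myc was lower (-2.74 ± 0.50, adjusted p = 0.0136), while Egr1 and Fosb had no counts. Both stage calls were lost without E9.25 replicate A (adjusted p = 0.0972 and 0.0503) or B (adjusted p = 0.114 and 0.0696), and stage and library protocol cannot be told apart. The mean Egr1 level of cystic EBs (2.72 to 8.93 CPM) was 56.6 times a floor of 3 counts in E12.5 ysE. It was 42.7 times that floor without the highest cystic EB library. Atf3, 29.5 CPM in E12.5 ysE, was lower in liver (-4.48 ± 0.64, adjusted p = 0.000556). The part of sample handling or stress in the Gadd45b difference was not tested.

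The count of calls among the 8 genes was set beside that of all 24858 transcripts tested. In E9.25 ysE against mesoderm 0 of the 8 were called, where 30.6% of all transcripts were called (13.7% higher and 16.9% lower). In E12.5 ysE against E9.25 ysE, 1 gene was called (Gadd45b), beside 8.47% of all transcripts (3.9% higher and 4.57% lower). In liver against E12.5 ysE 1 was higher and 2 were lower, beside 46.3% (23.7% and 22.6%). Cystic EBs had 2 higher and 2 lower against E12.5 ysE, beside 40% (21.1% and 18.8%), and 3 higher and 1 lower against E9.25 ysE, beside 50.3% (27.1% and 23.2%). They had 4 higher and 2 lower against liver, beside 45.4% (24.6% and 20.9%), and 3 higher and 0 lower against mesoderm, beside 28.9% (13.9% and 15%).

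The median log2 difference of the 8 genes was 0.49, 0.69, 0.88 and 0.87 in these cystic EB comparisons, in that order, and the median of all transcripts was 0.42, 0.17, 0.20 and 0.03. In the remaining tissue comparisons the medians of the 8 were 0.26 between yolk sac layers, 0.31 between ysE stages and 0.21 for liver against E12.5 ysE, and those of all transcripts -0.05, -0.21 and 0.26. With library totals in place of TMM the median of all transcripts moved to 0.93 against E12.5 ysE and 0.76 against E9.25 ysE, so a difference between cystic EBs and ysE is relative to that shift. It moved to 0.64 for liver against E12.5 ysE and to -0.39 between yolk sac layers. The comparisons with cystic EBs share the same 4 libraries and are not independent of each other.

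**Figure D3:**
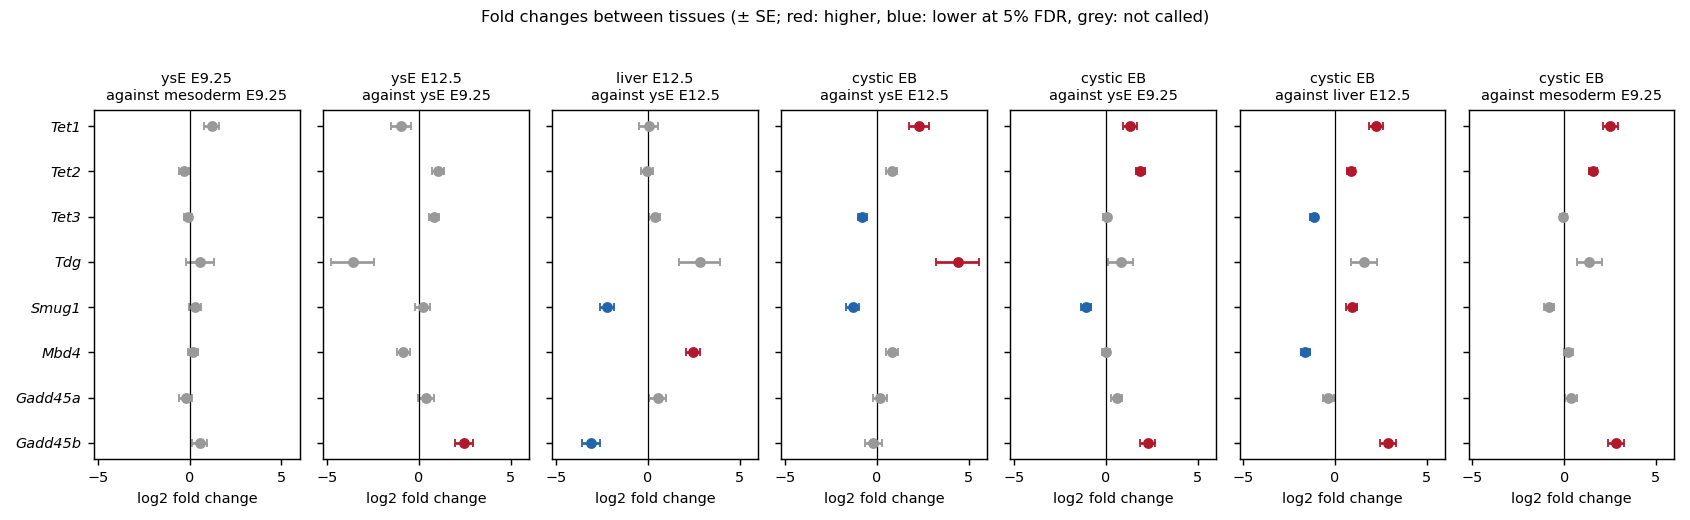
Log2 fold changes with standard errors (horizontal axes) of the 8 genes (vertical axis) in 7 tissue comparisons from 1 edgeR fit of 11 libraries, with calls at 5% in red (higher) and blue (lower). Tet1 is red in each of the 4 cystic EB panels, Gadd45b in 3 of them, and no gene is called between the layers of the E9.25 yolk sac.

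Where cystic EBs and tissue shared a library protocol, the direction of the called TET genes was as in the full fit. In each fit within 1 protocol the cystic EBs were 1 clone, with day 10 and day 15 entered as replicates. The standard errors and p-values of these fits therefore cover no spread between clones. Among dUTP libraries (6 in the fit), clone JN differed from E9.25 ysE by 1.54 ± 0.40 in Tet1 (adjusted p = 0.0127) and 1.70 ± 0.18 in Tet2 (adjusted p = 0.000250), with 6 of the 8 genes called beside 60.9% of all transcripts. From mesoderm it differed by 2.67 ± 0.42 in Tet1 (adjusted p = 0.00267) and 1.33 ± 0.18 in Tet2 (adjusted p = 0.00151), with 5 of the 8 called beside 42.5%. Among ScriptSeq libraries (4 in the fit), clone A9 differed from liver by 2.10 ± 0.29 in Tet1 (adjusted p = 0.00432), 1.09 ± 0.18 in Tet2 (adjusted p = 0.00688), -1.14 ± 0.19 in Tet3 (adjusted p = 0.00758) and -1.38 ± 0.20 in Mbd4 (adjusted p = 0.00516), with 5 of the 8 called beside 44%.

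Between day 10 and day 15 of differentiation none of the 8 genes was called, and edgeR called 0% of the 22452 transcripts tested (304 had an unadjusted p under 0.05, and DESeq2 called 11 transcripts, none of them a member). Tet1 had the largest log2 difference over both clones and was lower at day 15 in each. It went from 70.2 to 50.1 CPM in clone A9 and from 103 to 39.6 CPM in clone JN, a log2 difference of -0.95 ± 0.35 with an unadjusted p of 0.0422 and an adjusted p of 1. Gadd45b was higher at day 15 in both clones, 9.62 and 20.6 CPM in clone A9 and 15.4 and 17.4 CPM in clone JN (0.60 ± 0.39, adjusted p = 1). Within clone A9, Gadd45b (log2 ratio 1.10) and Gadd45a (0.61) changed more than Tet1 (-0.49). Tet2 and Tet3 were lower at day 15 in both clones with log2 ratios of -0.54 to -0.11.

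**Figure D4:**
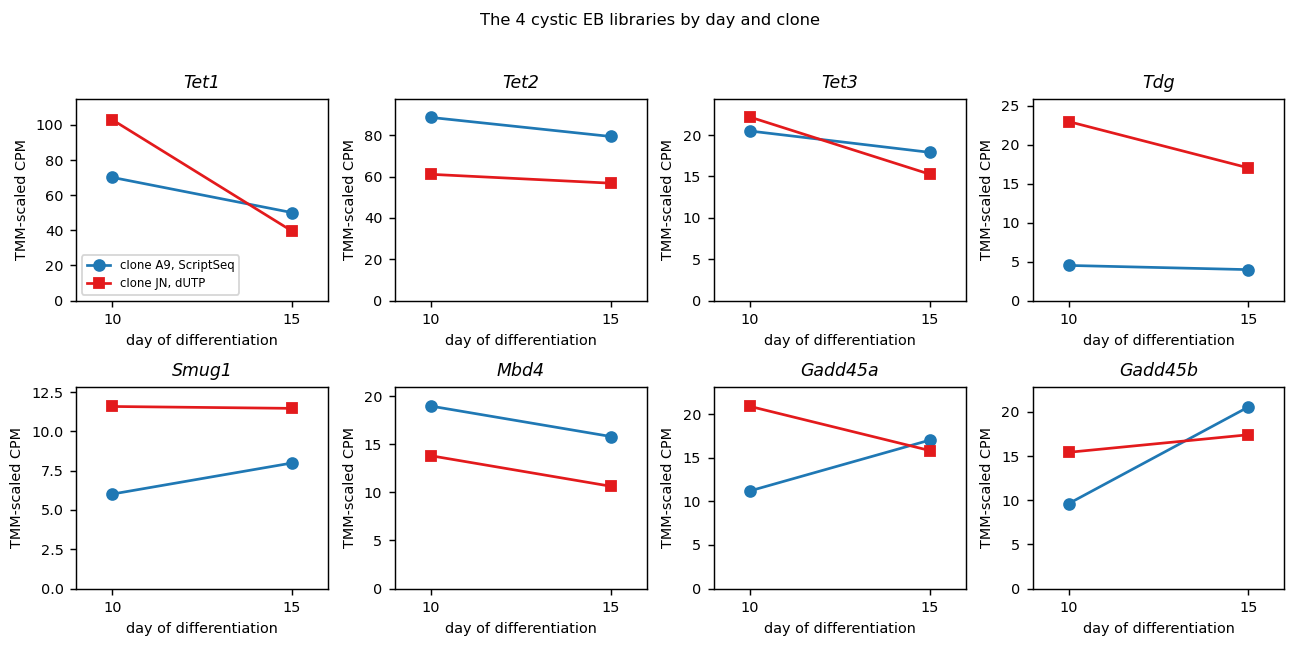
TMM-scaled CPM (vertical axes, from 0) of the 8 genes in the 4 cystic EB libraries against day of differentiation, with 1 line for each clone. Tet1 is lower at day 15 in both clones, Gadd45a is higher in clone A9 and lower in clone JN, and the clones stay apart in Tdg at both days.

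The rest of the pathway was taken from lists of 58 genes in all, each of which passed the filter in the fit of 11 libraries. Of 16 BER genes, 2 were higher and 2 lower in cystic EBs against E12.5 ysE, 0 and 2 against E9.25 ysE, 4 and 3 against liver and 2 and 1 against mesoderm. In these comparisons and in those of the lists that follow, the shares of all transcripts called in either direction were again 40%, 50.3%, 45.4% and 28.9%. Neil3, a glycosylase, was lower than in liver (-2.58 ± 0.28, adjusted p = 0.000138) and Fen1, a flap endonuclease, was lower than in mesoderm (-1.16 ± 0.21, adjusted p = 0.00434). In liver against E12.5 ysE, 4 BER genes were higher and 5 lower, beside 46.3% of all transcripts called. Xrcc1, a repair scaffold, was higher in the single, non-stranded library of E12.5 than in the dUTP libraries of E9.25 ysE (1.91 ± 0.27, adjusted p = 0.00530), so stage and protocol cannot be told apart, and the call was lost without E9.25 replicate A (adjusted p = 0.0508). Neil2 was higher in E9.25 ysE than in mesoderm (2.78 ± 0.44, adjusted p = 0.00153).

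Of the 10 genes that bind TET proteins, guard DNA from them or supply their cofactor, 3 were higher and 3 lower in cystic EBs against E12.5 ysE, 2 and 1 against E9.25 ysE, 5 and 2 against liver and 3 and 0 against mesoderm. Idh2 and Idh1, which make 2-oxoglutarate, were below E12.5 ysE in the cystic EBs (-1.78 ± 0.28, adjusted p = 0.00101, and -1.58 ± 0.56, adjusted p = 0.0474), and Idh3a was lower than in E9.25 ysE (-1.60 ± 0.26, adjusted p = 0.000959). Dppa3, which protects methylated DNA from TET3 in the zygote, had 0.503 to 9.13 CPM in cystic EBs and no counts in E12.5 ysE or liver. Its cystic EB mean was 169.9 times a floor of 3 counts in the 2 liver libraries together, or 93.7 times without day 10 of clone JN. Dppa3 was higher in clone JN than in clone A9 (3.37 ± 0.50, adjusted p = 0.0125). Idh1 was lower in clone JN (-1.59 ± 0.20, adjusted p = 0.00721). Without day 10 or day 15 of clone JN the Idh1 calls were lost, both against E12.5 ysE (adjusted p = 0.0577 and 0.0765) and between clones (adjusted p = 0.0717 and 0.0549), and without its day 10 that of Dppa3 between clones (adjusted p = 0.0828). Cxxc4, an inhibitor of TET2, was lower in E9.25 ysE than in mesoderm (-3.96 ± 0.56, adjusted p = 0.000853), and Prdm14, a pluripotency factor, was higher (3.60 ± 0.91, adjusted p = 0.0144). The Prdm14 call was lost without replicate A of ysE (adjusted p = 0.0684) or of mesoderm (adjusted p = 0.116). Counts over the whole Prdm14 transcript do not show which exons or isoform the reads came from. The paper reports that ysE transcribed Prdm14 from another promoter, with only its last exons. It states that this form would lack part of the domain needed for binding TET proteins. Prdm14 had 226 counts in E12.5 ysE and 0 and 3 in the liver libraries. Wt1, a factor that brings TET2 to its targets, had 56 and 208 counts in E9.25 ysE and 1 in E12.5 ysE.

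The methyltransferase list, which acts against demethylation, had 2 of 5 genes higher in cystic EBs in each of the 4 tissue comparisons, and 0, 1, 3 and 0 lower against E12.5 ysE, E9.25 ysE, liver and mesoderm. Dnmt3l, the cofactor of the de novo enzymes, had 10.2 to 52.8 CPM in cystic EBs and no counts in E12.5 ysE. Its cystic EB mean was 263.3 times a floor of 3 counts in E12.5 ysE, or 157.2 times without day 10 of clone JN. Dnmt3l was also higher than in E9.25 ysE (9.41 ± 1.28, adjusted p = 0.000361), mesoderm (8.02 ± 1.17, adjusted p = 0.00141) and liver (8.16 ± 1.20, adjusted p = 0.000662), where it had 1 to 15 counts per library. Without replicate A or B of the tissue the differences were 10.5 and 8.69, 9.10 and 7.38, and 10.4 and 7.38, in the same order. Of 4 deaminases, 2, 2, 1 and 3 were higher and none lower in the same order. Apobec1 had no counts in E12.5 ysE. Its mean was 17.4 times the same floor in cystic EBs, or 14.8 times without their highest library, and 19.5 times in liver. Apobec3 was lower in E9.25 ysE than in mesoderm (-3.34 ± 0.44, adjusted p = 0.000661). Of Gadd45g and Gadd45gip1, 1 was lower in each cystic EB comparison with a tissue and none was higher. Of the 6 proliferation genes, 1 was higher and 1 lower in cystic EBs against E12.5 ysE, 0 and 1 against E9.25 ysE, 1 and 2 against liver, and 0 and 1 against mesoderm. Those higher were Top2a against E12.5 ysE (0.80 ± 0.28, adjusted p = 0.0466) and Cdk1 against liver (0.78 ± 0.22, adjusted p = 0.0185). Cystic EBs had less Mki67 than liver (-2.65 ± 0.49, adjusted p = 0.00213) and less Cdk1 than E9.25 ysE (-1.45 ± 0.21, adjusted p = 0.000502), and between clones Ccnb1 (2.78 ± 0.22, adjusted p = 0.00129) and Pcna (2.07 ± 0.28, adjusted p = 0.0101) were higher in JN and Mki67 lower (-1.39 ± 0.24, adjusted p = 0.0206). Of these calls, Top2a was lost without day 10 of clone A9 (adjusted p = 0.0717) or day 15 of clone JN (adjusted p = 0.0522), Cdk1 against liver without liver replicate A (adjusted p = 0.155), and between clones Pcna without day 10 of JN (adjusted p = 0.0579) and Mki67 without its day 10 (adjusted p = 0.127) or day 15 (adjusted p = 0.0917).

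Genes with the profile most like each member were sought among 15139 transcripts over the 11 libraries, by Pearson's r of log2 CPM, given as a description because libraries of a tissue share its makeup and protocol. The most alike were Cbfa2t2 for Tet1 (r = 0.94), Zcchc11 for Tet2 (0.98), Cish for Tet3 (0.96), Rps18 for Tdg (0.95), Fastk for Smug1 (0.99), Med1 for Mbd4 (0.99), Vps13b for Gadd45a (0.84) and Foxq1 for Gadd45b (0.97). Between members, r was 0.65 for Tet1 and Tet2, -0.43 for Tet1 and Tet3, 0.01 for Tet2 and Tet3, and -0.82 for Smug1 and Mbd4.

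The methylation that these enzymes act on differed in level between the 3 tissues sequenced. Over the 16 chromosomes with calls in all libraries, 67.7% and 60.1% of reads at CpGs were methylated in ysE (CxF and FxC, mean 63.9% ± 5.40 SD, n = 2), 77.6% and 79.8% in liver (78.7% ± 1.56, n = 2) and 86.9% and 82.6% in cystic EBs (84.8% ± 3.10, n = 2). Every ysE library lay below every liver library, and every liver library below every cystic EB library. Among calls with at least 5 reads the last order did not hold, with 79.6% in liver FxC and 79.2% in cystic EBs FxC. No test was made, since with 2 libraries a tissue the smallest two-sided p of exact permutation is 0.333 between a pair of tissues and 0.0667 over all 3, and the mean depth was only 1.80 to 2.21 reads per call. Cystic EBs thus had the highest summed TET RPKM and the highest methylation of these tissues, from different ES clones than those of the RNA libraries. The ysE at E12.5 had 6.45 RPKM and the lowest methylation. RPKM carries no TMM factor, so the place of ysE beside liver in TET level depends on the scaling.

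Of the members' own genes, Tet1, Tet2, Tet3 and Tdg were methylated in most reads from start to end in all tissues. The methylated share of reads in Tet1 was 79.6% and 72.7% for ysE, 78.9% and 84.6% for liver, and 87.9% and 82.5% for cystic EBs, from 417 to 677 reads per library. The medians over all protein-coding genes were 71.8% and 66.7% for ysE, 79.0% and 81.0% for liver, and 86.1% and 81.7% for cystic EBs. For Tet2, ysE had 81.6% and 69.3%, liver 82.5% and 77.98%, and cystic EBs 80.3% and 75.1%, without the order of the genome. Tet3 had 80.0% and 77.9%, 94.2% and 84.2%, and 90.8% and 78.2% in the same order of libraries, and Tdg had 79.8% and 80.7%, 72.1% and 85.6%, and 88.7% and 82.5%. In these 4 genes ysE lay above its own median gene in each library.

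Mbd4 and Smug1 had fewer reads. Mbd4 (chr6:115840697-115853400) was at 72.6% and 42.6% for ysE, 76.0% and 91.7% for liver, and 61.3% and 77.6% for cystic EBs, from 25 to 75 reads, with 95% Wilson intervals of 29.5% to 56.7% for the lower ysE value and 81.9% to 96.4% for the higher liver value. Smug1 had 82.6% and 40.5% in ysE and 77.3% and 72.4% in cystic EBs from 29 to 69 reads, and liver had no calls on chromosome 15. The gap between the ysE libraries was larger than any difference between tissue means in these genes. The short genes Gadd45a and Gadd45b, about 2.3 kb and 2.1 kb long, lie almost wholly under H3K4me3. Gadd45a had 16.7% and 0% in ysE (12 and 8 reads), 33.3% in liver FxC (36 reads, interval 20.2% to 49.7%) and 0% in cystic EBs CxF (23 reads, upper limit 14.3%), below the median gene in each of these libraries. Gadd45b had 1.96% (ysE CxF, 51 reads), 0% (liver CxF, 17 reads, Wilson upper limit 18.4%), and 6.90% and 7.14% (cystic EBs, 29 and 14 reads).

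Near the start sites, within 1 kb to either side, all members but Tet3 and Mbd4 lay below the median of all such windows in each library with 5 or more reads there (42.9% and 40% in ysE, 60.0% and 62.5% in liver, 75% and 68.8% in cystic EBs). The members were richer in CpG than most windows, with 14 to 57 in the 300 bases against a median of 7. Their starts also lay under H3K4me3 in yolk sac. Windows alike in these respects were not compared, so a place below the median is not particular to these genes. Tet1 had 27.8% and 0% in ysE (18 and 25 reads), 14.8% and 40% in liver (27 and 10 reads) and 55.6% and 50% in cystic EBs (9 and 6 reads). In this window the Wilson interval of ysE FxC was 0% to 13.3%. It overlapped neither interval of cystic EBs (26.7% to 81.1% for CxF and 18.8% to 81.2% for FxC). That of ysE CxF overlapped both. The separation depends on the window. Within 2 kb, ysE had 30.0% and 15.2% (20 and 33 reads), liver 27.5% and 46.2%, and cystic EBs 66.7% and 68.8% (27 and 16 reads). There the interval of ysE FxC (6.65% to 30.9%) again lay below both of cystic EBs (47.8% to 81.4% and 44.4% to 85.8%). That of ysE CxF overlapped them. Within 500 bases, ysE had 33.3% and 0% and cystic EBs 55.6% and 50%, with overlapping intervals. In the H3K4me3 peak over the Tet1 start, ysE had 26.3% and 7.14% (19 and 28 reads) and liver 15.6% and 0% (32 and 5 reads). Cystic EBs CxF had 0% of 6 reads there and FxC 75% of 8. Within 1 kb, Tet2 had 18.2% and 25% in ysE, 36.8% and 30.8% in liver, and 33.3% in the 1 cystic EB library with 5 or more reads. Tdg had 11.1% and 0% in ysE and 46.2% and 24.1% in liver from 8 to 29 reads, and 33.3% of 9 reads in cystic EBs FxC.

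The starts of Tet3 and Mbd4 lay above the median window in ysE CxF and liver FxC, and below it in the other libraries with 5 or more reads. Mbd4 had 57.1% and 0% in ysE (21 and 12 reads), 14.3% and 63.6% in liver (7 and 22 reads) and 0% and 30.0% in cystic EBs (14 and 10 reads), so that the libraries of a tissue were far apart. Tet3 had 80.0% in ysE (CxF, 20 reads, interval 58.4% to 91.9%) and 88.9% in liver (FxC, 45 reads, 76.5% to 95.2%), against 45.5% and 30.0% in cystic EBs (22 and 10 reads, 26.9% to 65.3% and 10.8% to 60.3%), and the yolk sac H3K4me3 peak of score 3163 covers it. The other libraries of ysE and liver had 3 reads each there. At the most upstream Tet3 peak of score 719 ysE had 83.3% and 44.4%, liver 83.3% and 26.7%, and cystic EBs 55.6% and 33.3%, from 6 to 45 reads. In the Tet1 peak 21.8 kb inside the gene, 75% of 16 reads were methylated in ysE CxF, 50% and 28.6% of 6 and 14 reads in liver and 33.3% of 9 reads in cystic EBs CxF. Methylation and H3K4me3 come from different animals. Reads were summed over CpGs, so a read over several CpGs counted at each. The intervals take these as independent, so they can be too narrow, and they cover no spread between animals.

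**Figure D5:**
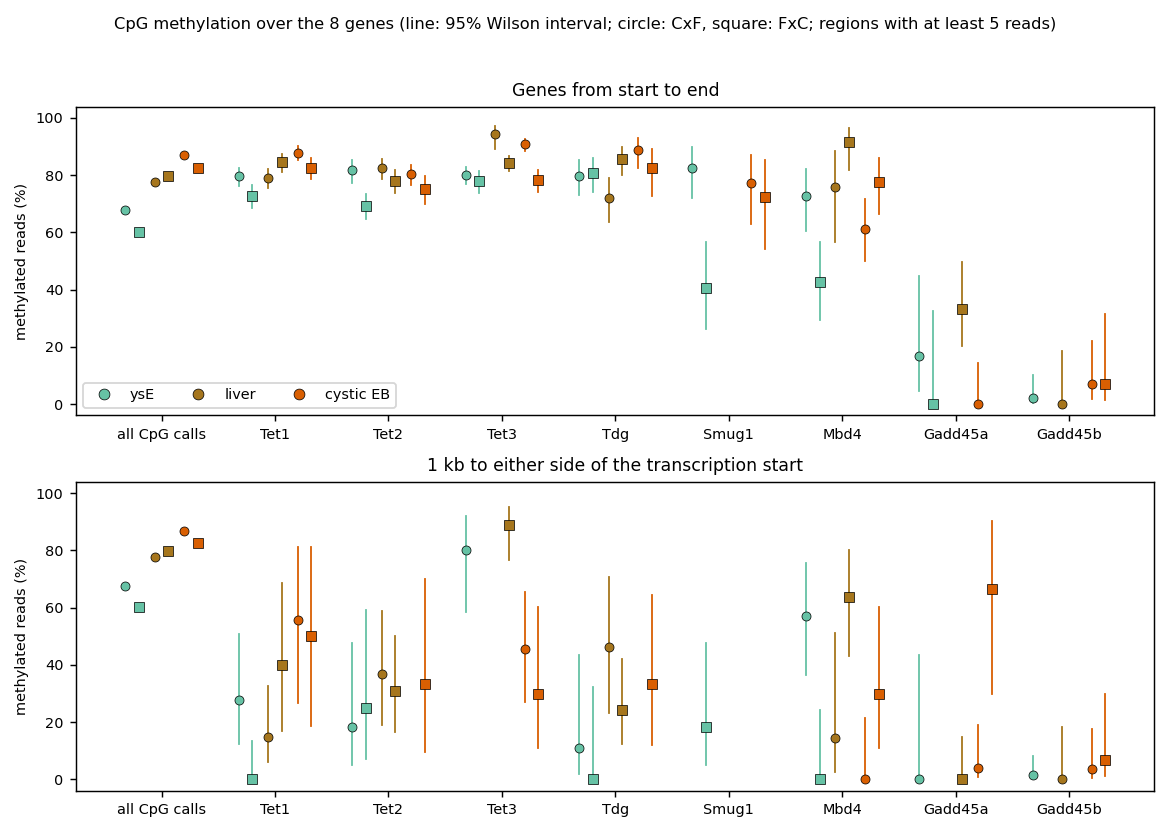
Percent of methylated reads (vertical axes) in ysE, liver and cystic EBs for all CpG calls and for the 8 genes, from gene start to end (top) and within 1 kb of the start (bottom), with 95% Wilson intervals, 1 point per library with at least 5 reads. Gene bodies of Tet1, Tet2, Tet3 and Tdg lie between 69.3% and 94.2%, Gadd45b stays at or below 7.14%, and the intervals at most start sites are wide.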

How the data were processed

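RNA-seq, WGBS and H3K4me3 ChIP-seq reads were aligned by the authors with GSNAP to mm10. The authors deposited raw counts for each RefSeq transcript and the RPKM value of each, made with custom scripts and RSeQC. The handling of strand and of reads matching several places is not given in the sources used here. They also deposited counts per exon part, of which 5 libraries were used and 1 file with only zeros was not. For WGBS the authors called CpG methylation with BisSNP at low coverage settings and deposited, for each call, the methylated percent and the number of reads. The deposited peak list carries the score of MACS (version 1.4.2) for 1 pooled sample. Repeat counts were not used here.

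Counts were tested with edgeR 4.0.16 (quasi-likelihood, TMM, filterByExpr, Benjamini-Hochberg over all transcripts, 5%) in R 4.3.3, in 1 fit of 11 libraries in 5 tissue groups that share 1 estimate of the spread, and for day and clone in fits of the 4 cystic EB libraries. On simulated data these fits gave back the simulated fold changes but called only a minority, or none, of the changed transcripts, depending on the comparison. Far fewer transcripts were changed there than were called in most of these comparisons, so that share does not carry over. An uncalled difference is not by itself evidence of equal levels. CPM values are TMM scaled, and log2 CPM used a prior count of 2. Nothing states that the libraries of a tissue are separate experiments beyond their pooled litters. The p-values rest on the spread within groups, shared over the fit. E12.5 ysE, with 1 library, adds no spread of its own, so that of the other groups stands in for it. The 4 cystic EB libraries, from 2 clones, entered as if independent. In cystic EBs the clone pairs the days (correlation of deviations 0.64, same cell line). Members were named by the chosen list, and other genes of the pathway as the 2 with the largest called changes in each direction per comparison. Fosb, Pcna, and Mki67, Mcm2, Top2a and Cdk1 where they fall outside this rule, were named after their values were seen. The members and lists were chosen with earlier results of these data known.

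For each region with at least 5 reads the methylated reads were divided by all reads, with 95% Wilson intervals (scipy 1.17.1). Reads were summed over the CpG calls of the region, so a read over several CpGs counted at each. Gene and promoter positions came from RefSeq GRCm38.p6. Alternatives were RLE scaling, library totals only, DESeq2 1.42.0, no filter, a 1% threshold, other transcripts, fits of fewer libraries, a replicate block, and for methylation other weights, minimums and windows. Library totals only, E9.25 in place of E12.5 ysE, and leaving out libraries for the named pathway genes, were chosen after seeing the data.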

Additional observations from a re-analysis of the deposited data

Results flagged for a closer look

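Gadd45a was picked out because its change from day 10 to day 15 ran in opposite directions in the 2 cystic EB clones. The log2 ratio of day 15 over day 10 was 0.61 in clone A9 (11.2 to 17.0 CPM) and -0.40 in clone JN (20.9 to 15.8 CPM), and the counting errors were 0.072 and 0.044. With 1 library for each clone and day the difference was not tested.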

How the results depend on the processing

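The number of the 8 genes called moved by more than 1.5 times in these cases, given with the share of all transcripts called in the same fit, and the cause was not tested. Between yolk sac layers it was 2 (60.3%) with only the 2 groups fitted and 1 (36.8%) with DESeq2, against 0 (30.6%). Between ysE stages it was 2 (8.51%) with RLE scaling, 0 (1.9%) at a 1% threshold, 7 (50.2%) with only the 2 groups fitted and 4 (17.6%) with DESeq2, against 1 (8.47%). For cystic EBs against E12.5 ysE it was 1 both at a 1% threshold (23.3%) and with only the 2 groups fitted (27.5%), against 4 (40%), and against mesoderm 5 (42.5%) in dUTP libraries, against 3 (28.9%). For liver it was 5 (55%) with E9.25 in place of E12.5 ysE, against 3 (46.3%). Leaving out 1 cystic EB library gave 4 to 6 for cystic EBs against E12.5 ysE (37.9% to 42.3% of all transcripts) and 4 against E9.25 ysE (46.5% to 52.3%). It gave 5 to 7 against liver (41.4% to 48.5%) and 3 to 4 against mesoderm (24.4% to 31.6%). Leaving out a library of another tissue, or any library in the fits of day and clone, left a group with 1 library. The spread of that group was then taken from the other groups, so these counts are not given. The members' calls lost in those fits are given with each gene above.

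With the replicate block the counts were 0, 1 and 3 (32.2%, 7.82% and 48.2% of all transcripts) between layers, between stages and for liver against E12.5 ysE, 6, 4, 6 and 4 (41.1%, 52.2%, 46.7% and 32.1%) for cystic EBs against E12.5 ysE, E9.25 ysE, liver and mesoderm, and 0 (0%) between days, where the clone pairs the libraries. It added the calls of Tet2 (0.94, adjusted p = 0.0214) and Mbd4 (0.95, adjusted p = 0.0373) with E12.5 ysE as the reference of cystic EBs, and Smug1 (-0.85, adjusted p = 0.0351) against mesoderm. The letters of other tissues share only a number (correlations of deviations -0.09 to 0.17).

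With only the 2 groups fitted, the calls against E12.5 ysE of Tet3 (adjusted p = 0.122), Smug1 (adjusted p = 0.0700) and Tdg (adjusted p = 0.0677) in cystic EBs were lost, and that of Smug1 against liver (adjusted p = 0.0928). Other calls were gained by edgeR and DESeq2 fits. With RLE scaling Tet2 was gained between ysE stages (1.22). With only the 2 groups fitted they were Tet1 (1.17) and Tdg (0.54) between yolk sac layers and Tdg (2.85) in liver against E12.5 ysE, and between ysE stages Tet1, Tet2, Tet3, Mbd4, Gadd45a and Tdg. With library totals only they were Tet2 and Mbd4 in cystic EBs against E12.5 ysE, Tet3 and Gadd45a against E9.25 ysE, and Tdg in liver against E12.5 ysE (3.21, adjusted p = 0.0403). Without a clone A9 library Tdg passed against liver (1.83, adjusted p = 0.0393 without day 10, and 1.85, adjusted p = 0.0256 without day 15), and without a clone JN library Smug1 passed against mesoderm (-0.93, adjusted p = 0.0335 and 0.0367). DESeq2 also called Tdg (adjusted p = 0.0438) and Smug1 (adjusted p = 0.0363) there, Tet1 between yolk sac layers (adjusted p = 0.0333), Tet2, Tet3 and Tdg between ysE stages (adjusted p = 0.0173, 0.0190 and 0.00420) and Tdg in liver against E12.5 ysE (adjusted p = 0.00766).

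No fold change called for the transcript that stands for each of the 8 genes turned its sign in the alternatives run for the 7 tissue comparisons and those of day and clone. The second Tdg transcript, called in liver against E12.5 ysE, was -0.35 with E9.25 ysE in its place (adjusted p = 0.702). For the named genes of the pathway lists only leaving out 1 library was run. Uncalled ones that did were, with library totals only, Mbd4 (-0.13) and Smug1 (-0.048) between yolk sac layers, Tet2 in liver against E12.5 ysE (0.33), Gadd45b in cystic EBs against E12.5 ysE (0.30) and Tet3 against mesoderm (0.19). Tet3 against mesoderm was 0.006 with RLE scaling and with DESeq2. With the replicate block they were Tet2 in liver (0.10), Gadd45a in cystic EBs against E12.5 ysE (-0.017) and Mbd4 against E9.25 ysE (-0.006). In dUTP libraries Mbd4 was -0.15 against E9.25 ysE and -0.015 against mesoderm. With E9.25 in place of E12.5 ysE, liver differed by 1.003 in Tet2, -0.92 in Tet1 and -0.76 in Tdg, of which Tet2 passed (edgeR, adjusted p = 0.00936). Leaving out 1 library turned further uncalled differences, which then ranged as follows. Between yolk sac layers Tet3 ran from -0.292 to 0.059. For liver against E12.5 ysE, Tet2 ran from -0.127 to 0.022 and Tet1 from -0.241 to 0.294. For cystic EBs, Tet3 ran from -0.08 to 0.271 and Mbd4 from -0.132 to 0.142 against E9.25 ysE, Gadd45a from -0.759 to 0.163 against liver, and Tet3 from -0.132 to 0.041 against mesoderm. Between days, Tet2 ran from -0.419 to 0.159, Gadd45a from -0.346 to 0.543, Smug1 from -0.252 to 0.682 and Tdg from -1.787 to 1.204. Between clones, Tet1 ran from -0.625 to 0.771, Tet3 from -0.351 to 0.203 and Gadd45b from -0.337 to 0.754.

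The mean genome-wide methylation of each tissue under other weights and minimums stayed within 1 SD of its main value. With at least 5 reads per call, liver FxC (79.6%) lay above cystic EBs FxC (79.2%), so the separation of these tissues by library depends on that minimum.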
